A study of Mus musculus with 6 samples.

Results

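Adrenergic receptors are the membrane receptors for noradrenaline and adrenaline. The genes followed here are *Adra1a*, *Adra1b*, *Adra1d*, *Adra2a*, *Adra2c* and *Adrb1*, found by gene name among the 55421 genes of the deposited count table, which gave 1 row for each of the 6. Hippocampal RNA came from male wild-type C57BL/6N mice aged 8 to 10 weeks, 3 injected under the skin with substance P (SP, 10 µM in 100 µL) on 14 consecutive days while the 3 vehicle mice received saline. A stranded mRNA library was made from each mouse, and in both groups the mice carry a batch number from 1 to 3. Whole hippocampal tissue was used, so the counts mix all cell types of the dissected piece, and fewer cells of a type cannot be told apart from less RNA per cell. The question was whether the RNA of these receptors differed in the hippocampus after chronic peripheral SP.

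Noradrenaline reaches the hippocampus through axons of the locus coeruleus, a brainstem nucleus active during arousal and novelty. Its receptors are G protein-coupled and fall into 3 classes. Receptors of the alpha1 class couple to Gq and raise intracellular calcium through phospholipase C, receptors of the alpha2 class couple to Gi/o and lower cAMP, and receptors of the beta class couple to Gs and raise cAMP. Beta receptors are known for lowering the threshold of long-term potentiation at hippocampal synapses, and alpha2 receptors for restraining transmitter release as presynaptic autoreceptors.

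The libraries held 22349964 to 27605935 counts. Expression is given as CPM, the count scaled to a common library size after TMM normalization. All 10 of the markers listed for hippocampal pyramidal and granule cells were detected, with *Zbtb20* the most abundant of them at 284 and 289 CPM in the means of the groups, and with a summed level of 979 to 1023 CPM in the vehicle libraries and 974 to 1215 CPM in the SP libraries. Some libraries stood apart. Library SP 1 had 182 CPM of 10 choroid plexus markers, where the vehicle libraries had 3891 to 4863 CPM and SP 2 and SP 3 had 2870 and 4047 CPM. Library SP 2 had 7196 CPM of 11 oligodendrocyte and myelin markers, where SP 1 and SP 3 had 5584 and 5028 CPM. The vehicle libraries had 4383 to 4919 CPM of them, so that every SP library was above every vehicle library. Library SP 2 also had 117.5 CPM of 8 markers of layer 6b, subplate and subiculum neurons. The vehicle libraries had 200.6 to 204.5 CPM of these and the other SP libraries 155 and 165 CPM. The fold change of each receptor without batch 1, which holds SP 1, and without batch 2, which holds SP 2, is given with its result. Higher and lower mean SP relative to vehicle, as the samples are labelled. Which group is which rests on the labels and column names alone, and no gene was targeted that could check it in the counts. This assignment is in doubt. The paper names *Reln* and *Nr4a2* among the genes higher after SP and *Mag* and *Mbp* among those lower. With the labels as given, their log2 fold changes here were -0.44, -0.39, 0.37 and 0.38, the opposite directions. If the groups were exchanged, every direction given here would turn.

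To compare receptors with each other, counts were divided by the length of the merged exons of each gene in GENCODE M21 on GRCm38 and are given as RPKM. *Adra1d* was the most abundant adrenergic receptor RNA, with 19.5 ± 2.66 RPKM (SD, n = 6 libraries), a level above that of 86.3% of the tested genes that had a length. *Adra2c* followed with 5.62 ± 0.506 RPKM, *Adrb1* with 4.06 ± 0.376 RPKM and *Adra2a* with 2.73 ± 0.513 RPKM (SD, n = 6 each). Each of these 4 genes was above the next in 6 of 6 libraries, and their ranges over the libraries did not overlap. *Adra1d* was 3.47-fold above *Adra2c* in mean RPKM. *Adra1b* and *Adra1a* were the lowest of the members, with 0.870 ± 0.237 and 0.714 ± 0.107 RPKM (SD, n = 6 each). Their ranges overlapped, and *Adra1b* was higher in 5 of 6 libraries. The length used matters for *Adra1a*, whose 6 annotated transcripts merge to 8728 bases while the longest has 4282. With the longest transcript its mean was 1.45 RPKM, above the 0.883 RPKM of *Adra1b*.

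**Figure D1:**
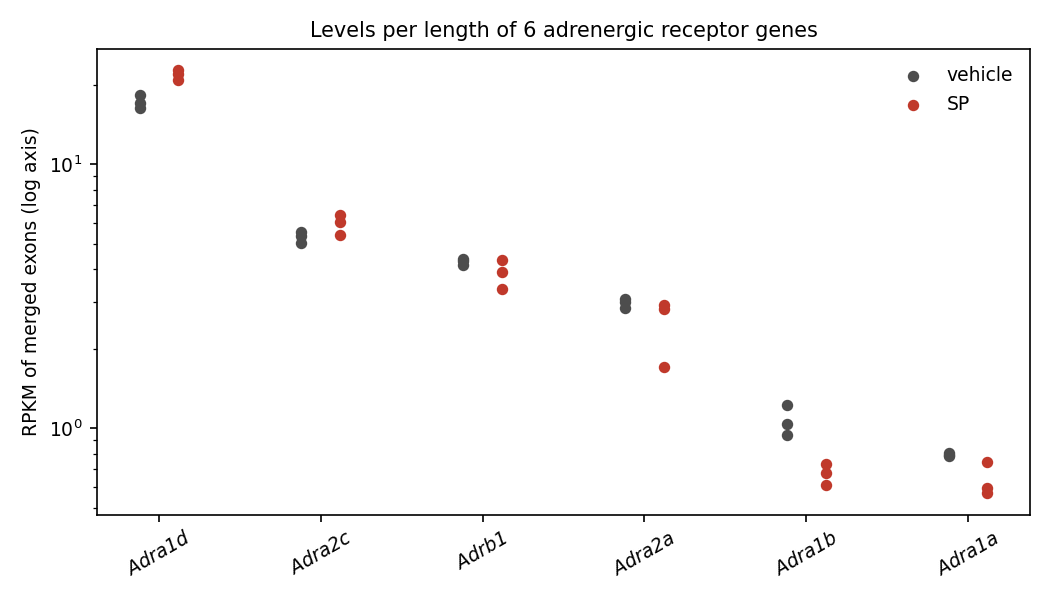
RPKM (CPM per kilobase of merged exons, log axis) of the 6 adrenergic receptor genes, ordered by their mean, with 1 point for each vehicle library (grey) and each SP library (red). *Adra1d* lies between 16.3 and 22.6 RPKM, and the ranges of *Adra1b* (0.611 to 1.22 RPKM) and *Adra1a* (0.566 to 0.808 RPKM) overlap.

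The alpha1 receptors differed in opposite directions. The level of *Adra1d* was higher and those of *Adra1b* and *Adra1a* were lower in the SP libraries, and for each of the 3 genes the groups did not overlap. Over all 17069 genes tested, the groups did not overlap for 18.2%, 9.19% higher and 9.03% lower in the SP group. In edgeR's quasi-likelihood test with the batch number as a block and Benjamini-Hochberg adjustment over all genes (FDR), none of the 3 passed FDR < 0.1. Each had an unadjusted p under 0.05, as 10.1% of all tested genes did.

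*Adra1d* (ENSMUSG00000027335, chromosome 2 of GRCm38 from 131545850 to 131562283, minus strand, 2 exons) encodes the alpha1D receptor. It had 754, 855 and 855 counts, or 32.4, 34.6 and 31.0 CPM, in vehicle 1, 2 and 3. It had 981, 1035 and 880 counts, or 41.8, 43.0 and 39.5 CPM, in SP 1, 2 and 3. Every SP library was above every vehicle library. The mean was 32.7 ± 1.78 CPM in the vehicle group and 41.4 ± 1.75 CPM in the SP group (SD, n = 3 mice each), a log2 fold change of 0.34 (standard error 0.0592, 95% interval 0.20 to 0.48), or 1.27-fold. By its edgeR p it held rank 26 of the genes tested, with an FDR of 0.308. Within batches 1, 2 and 3 the log2 ratios were 0.37, 0.31 and 0.35, so that the difference was nearly of the same size in each. The log2 fold change was 0.33 without batch 1 and 0.36 without batch 2. The antisense transcript Gm14285 shares 147 exon bases with *Adra1d* and had 2 to 5 counts in each library.

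*Adra1b* (ENSMUSG00000050541, chromosome 11 from 43774606 to 43901210, minus strand) encodes the alpha1B receptor and was sparse. It had 96, 87 and 88 counts in vehicle 1, 2 and 3 and 58, 55 and 46 in SP 1, 2 and 3, which is 4.13, 3.52 and 3.19 CPM against 2.47, 2.28 and 2.07 CPM. The lowest vehicle library was above the highest SP library. The mean was 3.61 ± 0.474 CPM in the vehicle group and 2.27 ± 0.203 CPM in the SP group (SD, n = 3 each). The log2 fold change was -0.66 (standard error 0.161, 95% interval -1.04 to -0.29, FDR 0.338 from edgeR), which is 0.631-fold. It was -0.62 without batch 1 and -0.68 without batch 2. The pairs of batches 1, 2 and 3 gave log2 ratios of -0.74, -0.62 and -0.63.

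RefSeq places starts of *Adra1b* at 2 sites on GRCm38.p6, and the counts per gene do not show which was used. The 250 bases before each are shown because this gene had the largest fold difference of the members and the sites differ in base composition. They are written 5′ to 3′ on the gene's strand, with the GC box (GGGCGG or its complement CCGCCC) in capitals where present. The upstream site lies at chr11:43901238-43901487 (minus strand) and has 41.6% G and C, and the downstream site lies at chr11:43836490-43836739 (minus strand) and has 72.8%, where the median of all promoters in the table was 52.4%.
*Adra1b*, upstream start: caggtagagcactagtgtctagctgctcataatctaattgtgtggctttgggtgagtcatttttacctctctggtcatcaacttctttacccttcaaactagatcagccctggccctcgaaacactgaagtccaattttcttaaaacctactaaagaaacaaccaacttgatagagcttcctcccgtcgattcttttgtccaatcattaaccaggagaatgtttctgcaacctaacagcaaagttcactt
*Adra1b*, downstream start: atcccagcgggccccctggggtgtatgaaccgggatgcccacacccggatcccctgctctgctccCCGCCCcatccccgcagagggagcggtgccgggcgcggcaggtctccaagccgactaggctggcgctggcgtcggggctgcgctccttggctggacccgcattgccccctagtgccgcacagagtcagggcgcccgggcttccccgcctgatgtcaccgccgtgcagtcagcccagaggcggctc
Both strands were searched for a CRE core (TGACG), a GC box, a TATA box (TATAAA), an E-box (CACGTG) and the core of a glucocorticoid element (AGAACA). The upstream window held none of these. The downstream window held 1 GC box, beginning 185 bases before the start, a motif found in 32.7% of 32851 promoter windows of this length. A match is a description of the sequence only.

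*Adra1a* (ENSMUSG00000045875, chromosome 14 from 66635251 to 66771168, plus strand) encodes the alpha1A receptor. It had 164, 169 and 191 counts in vehicle 1, 2 and 3 and 121, 119 and 144 counts in SP 1, 2 and 3. On the CPM scale these were 7.05, 6.83 and 6.93 against 5.16, 4.94 and 6.47. SP 1 and SP 2 were clearly lower, while SP 3 lay just under the vehicle libraries. The mean was 6.94 ± 0.109 CPM in the vehicle group and 5.52 ± 0.826 CPM in the SP group (SD, n = 3 each). The log2 fold change was -0.34 (standard error 0.128, 95% interval -0.64 to -0.035, FDR 0.455 from edgeR). Without batch 1 it was -0.28 and without batch 2 it was -0.27, and the unadjusted p was above 0.05 in both.

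As a result of these opposite differences, the make-up of alpha1 receptor RNA was not the same in both groups. *Adra1d* was 90.2 ± 0.772% of the summed RPKM of the 3 genes in the vehicle libraries and 94.4 ± 0.450% in the SP libraries (SD, n = 3 each). *Adra1b* was 5.60 ± 0.682% against 2.91 ± 0.199%, and *Adra1a* was 4.18 ± 0.246% against 2.75 ± 0.521%. For each of the 3 shares the groups did not overlap, as is the case for the genes' CPM. As shares of the counts, with no division by length, *Adra1d* was 75.6% in the vehicle group and 84.1% in the SP group. The summed alpha1 level, most of it from *Adra1d*, was 43.2 ± 1.90 CPM in the vehicle group and 49.2 ± 1.08 CPM in the SP group (SD, n = 3 each). The groups did not overlap in this sum. These sums and shares restate the CPM of the same 3 genes and are no separate result. No test was run on them.

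**Figure D2:**
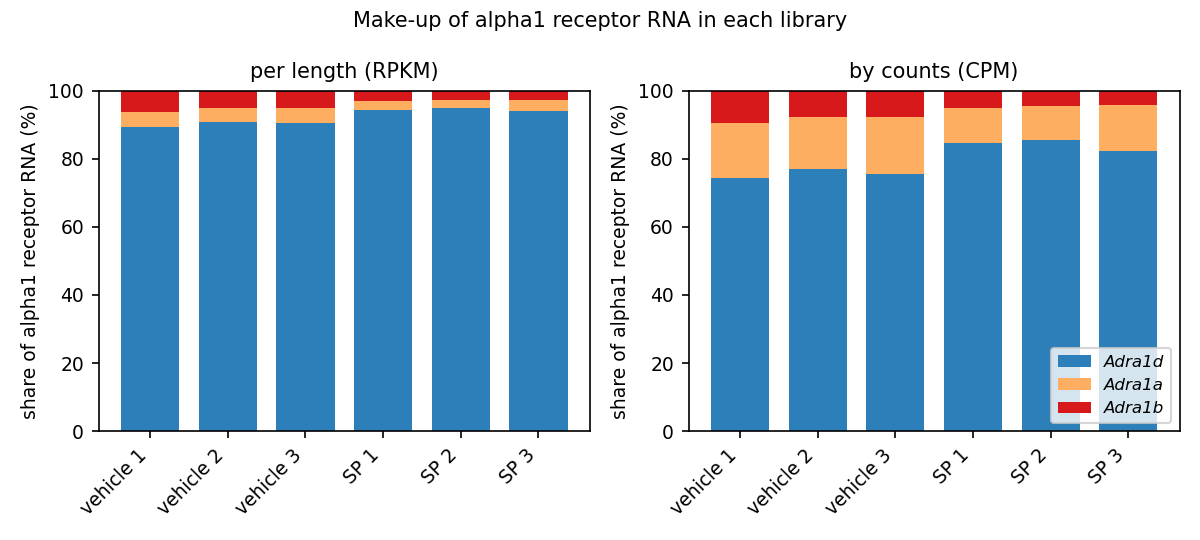
Stacked bars of the share (%) of *Adra1d* (blue), *Adra1a* (orange) and *Adra1b* (red) in the alpha1 receptor RNA of each library, per length on the left and by counts on the right. On both scales the share of *Adra1d* is larger in each SP library, 82.2% to 85.6% of the counts, than in each vehicle library, 74.4% to 77.0%.

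Neither alpha2 receptor passed the test, and for both the groups overlapped. *Adra2a* (ENSMUSG00000033717, chromosome 19 from 54044151 to 54048982, plus strand, 1 merged exon) encodes the alpha2A receptor, the best known presynaptic autoreceptor of noradrenergic axons. It had 14.5, 14.9 and 13.8 CPM in vehicle 1, 2 and 3 and 13.6, 8.22 and 14.1 CPM in SP 1, 2 and 3. SP 2, with 198 counts, was far below the other libraries, which had 315 to 379, and SP 3 lay within the vehicle range. The log2 fold change was -0.29 (standard error 0.166, 95% interval -0.68 to 0.099, FDR 0.598 from edgeR), and it was -0.39 without batch 1 and -0.025 without batch 2.

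*Adra2c* (ENSMUSG00000045318, chromosome 5 from 35278319 to 35281763, plus strand, 1 exon) encodes the alpha2C receptor. It had 18.4, 17.3 and 19.1 CPM in vehicle 1, 2 and 3 and 22.1, 18.6 and 20.7 CPM in SP 1, 2 and 3. SP 1 and SP 3 were above every vehicle library, and SP 2 was within their range. The level was higher in the SP mouse of 3 of 3 batches, with a log2 fold change of 0.16 (standard error 0.0761, 95% interval -0.015 to 0.34, FDR 0.523 from edgeR). It was 0.11 without batch 1 and 0.19 without batch 2.

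*Adrb1* (ENSMUSG00000035283, chromosome 19 from 56722199 to 56733113, plus strand) encodes the beta1 receptor and is the beta receptor gene among the 6. It had 14.5, 14.8 and 14.0 CPM in vehicle 1, 2 and 3 and 13.2, 11.4 and 14.6 CPM in SP 1, 2 and 3. As for *Adra2a*, SP 2 was the lowest of all libraries and SP 3 lay within the vehicle range. The mean was 14.4 ± 0.397 CPM in the vehicle group and 13.1 ± 1.59 CPM in the SP group (SD, n = 3 each). The log2 fold change was -0.15 (standard error 0.103, 95% interval -0.39 to 0.096, FDR 0.676 from edgeR), and it was -0.15 without batch 1 and -0.036 without batch 2.

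The RefSeq promoter of *Adrb1* is shown because this receptor couples to cAMP and its window holds the core of a cAMP response element. The 250 bases lie at chr19:56721867-56722116 (plus strand, GRCm38.p6) and have 74.0% G and C. Capitals mark, in order, a GC box on the opposite strand and a CRE core.
*Adrb1*: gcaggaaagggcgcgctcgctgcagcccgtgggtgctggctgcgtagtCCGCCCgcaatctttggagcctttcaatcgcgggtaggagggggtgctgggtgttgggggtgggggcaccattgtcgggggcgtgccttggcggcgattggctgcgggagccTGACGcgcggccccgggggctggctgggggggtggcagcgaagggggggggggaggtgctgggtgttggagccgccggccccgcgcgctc
The CRE core begins 90 bases before the start, and 17.8% of all promoter windows held this motif on either strand. The window of *Adra2a* also held a CRE core, 69 bases before its start, together with a GC box, a TATA box and an E-box. The window of *Adra2c* held an E-box, which 6.02% of all windows had. These windows of *Adra2a* and *Adra2c* overlap an exon of the GENCODE annotation and are not printed. *Adra1a* and *Adra1d* had no entry.

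**Figure D3:**
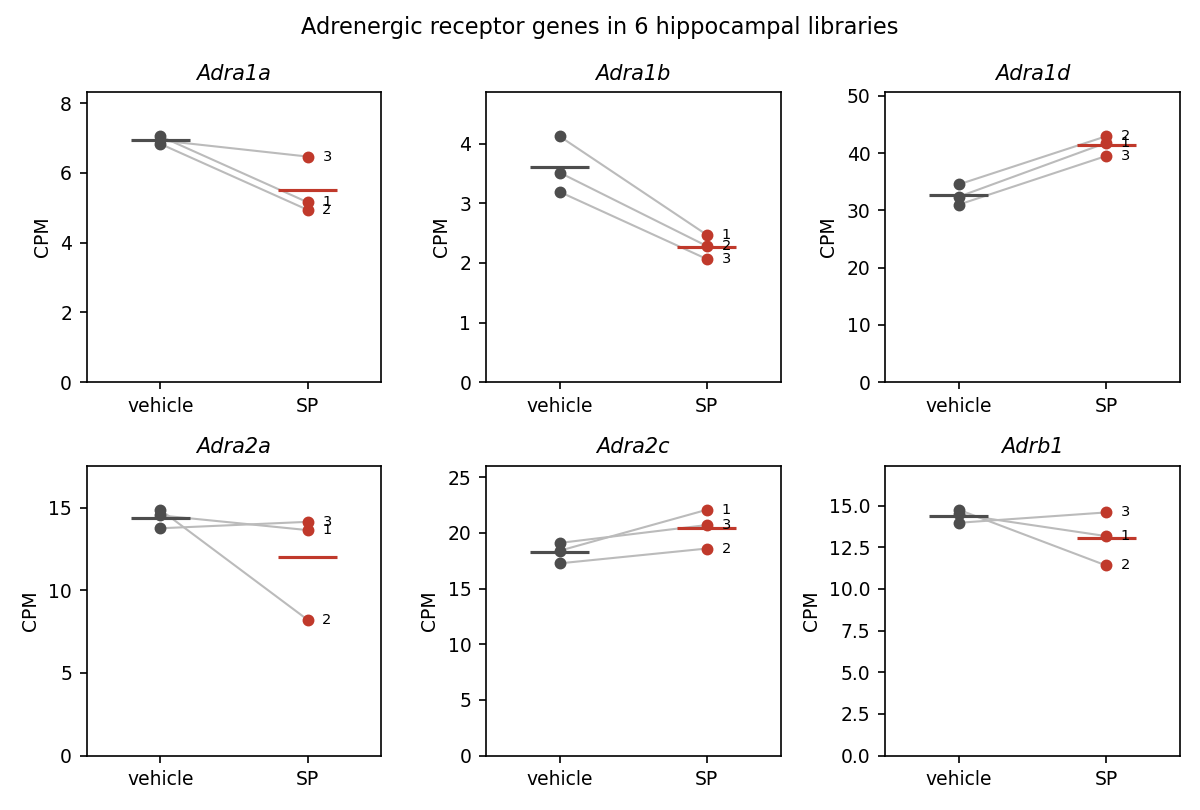
CPM of the 6 receptor genes in each library, from 0, with vehicle libraries in grey and SP libraries in red, group means as bars, and lines that join mice of the same batch number (1 to 3, given beside the SP points). The groups are separate for *Adra1a*, *Adra1b* and *Adra1d* and overlap for *Adra2a*, *Adra2c* and *Adrb1*, where SP 2 is the lowest SP library.

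*Adrb3* and *Adra2b*, which encode the beta3 and alpha2B receptors and are not among the 6, were close to the limit of detection. *Adrb3* had 8 to 20 counts and *Adra2b* 2 to 18. Both passed the filter on low counts, and neither had an unadjusted p under 0.05. The 95% interval of the log2 fold change ran from -1.14 to 1.02 for *Adrb3* and from -0.66 to 2.82 for *Adra2b*. These intervals are wide and include 0, so neither the direction nor the size of a difference can be told from them.

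Taking the 6 members, 0 passed FDR < 0.1 with |log2FC| > 0.3 in edgeR, where 0.0293% of all genes tested did, 0.0176% higher and 0.0117% lower. All 6 were tested. An unadjusted p under 0.05 was found for 3 of them, 1 higher and 2 lower, beside 4.48% of all genes higher and 5.59% lower. The median log2 fold change of the members was -0.22, beside 0.0015 over all genes tested. For *Adra1a*, *Adra1b* and *Adra1d* the two-sided exact permutation p was 0.1, the smallest that 3 mice against 3 allow. The calls depended on the fit. *Adra1d* passed both thresholds with no filter on low counts (FDR 0.0261) and with DESeq2 without the block (FDR 0.0168), and *Adra1b* passed with no filter (FDR 0.0723).

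**Figure D4:**
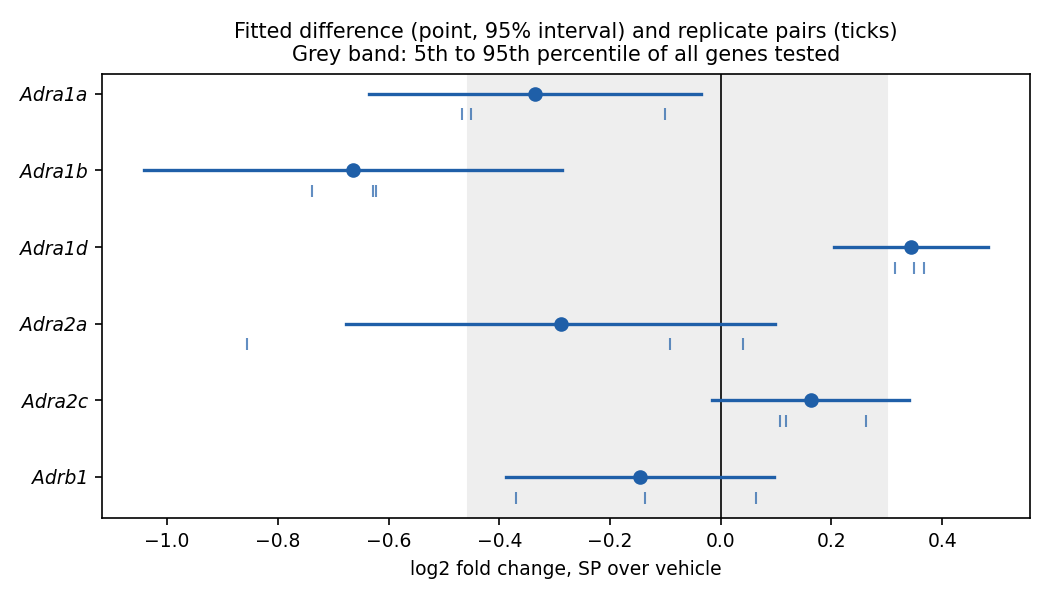
Log2 fold change (SP over vehicle) of the 6 receptor genes, with points for the fitted value, lines for its 95% interval and ticks for the 3 batch pairs. The grey band spans the 5th to 95th percentile of all genes tested, from -0.46 to 0.30, and *Adra1d* and *Adra1b* lie outside it.

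The genes of noradrenaline synthesis, transport and breakdown were also examined. The cell bodies that make noradrenaline lie in the brainstem, so its supply cannot be told from these hippocampal counts. *Phox2a*, a transcription factor of noradrenergic neurons, had 0 counts in each library, which allows up to 0.109 to 0.135 CPM (3 counts, counting error only). *Slc6a2*, the noradrenaline transporter, had at most 1 count, and *Dbh*, which makes noradrenaline from dopamine, had 4 to 18. *Slc18a2*, the vesicular monoamine transporter, which other monoamine neurons also use, was the most abundant marker of the list, with 38 to 97 counts. Of 7 markers of noradrenergic neurons 3 were tested, with a median log2 fold change of 0.206 and none with an unadjusted p under 0.05. That median ranged from -0.15 to 0.62 over 18 alternative fits. *Maob*, a monoamine oxidase, had 26.5 ± 1.16 CPM in the vehicle group and 22.8 ± 3.30 CPM in the SP group (SD, n = 3 each), a log2 fold change of -0.22 (FDR 0.439 from edgeR). It was the only one of the 9 tested genes of this list with an unadjusted p under 0.05.

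Over 11 lists of the pathway, 86 of 89 genes were tested and 0 were called. These lists include those of the other receptors and of noradrenaline synthesis, transport and breakdown. An unadjusted p under 0.05 was found for 5 higher and 8 lower genes, 15.1% of those tested beside 10.1% of all genes. The G protein alpha subunits of the Gq, Gi/o and Gs classes had median log2 fold changes of 0.069, 0.046 and 0.014, and 0 of their 10 genes had a p under 0.05. The 12 genes of phospholipase C beta, IP3 receptors and protein kinase C, through which alpha1 receptors act, had a median of 0.013 and also 0 such genes. The 9 cAMP phosphodiesterases had a median of 0.037, again with 0 such genes.

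In the cAMP branch, *Prkar2b*, a regulatory subunit of protein kinase A, had 40.8 ± 0.738 CPM in the vehicle group and 32.9 ± 2.27 CPM in the SP group (SD, n = 3 each), which is -0.31 on the log2 scale (FDR 0.308 from edgeR, standard error 0.0659). *Prkacb*, a catalytic subunit of the same kinase, had a log2 fold change of -0.23 (FDR 0.404), and the groups did not overlap for either gene. *Crtc1*, a coactivator of CREB, was higher by 0.19 (FDR 0.440), also with no overlap. The 10 genes of protein kinase A and CREB had a median of -0.059. For 3 of them the groups did not overlap with SP higher and for 3 with SP lower. Over all genes tested these shares were 9.19% and 9.03%. Among 9 tested adenylyl cyclases, *Adcy8* had a log2 fold change of -0.33 (FDR 0.437) and *Adcy9* of 0.20 (FDR 0.493), with a median of 0.0079 over the list.

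Of the 12 receptor kinases, arrestins and RGS proteins, which end receptor and G protein signaling, *Rgs14* and *Rgs8* had log2 fold changes of 0.25 each (FDR 0.335 and 0.408) and *Rgs4* and *Grk3* of -0.19 and -0.14 (FDR 0.384 and 0.465). Their median was -0.011. Among 12 early genes that cAMP can induce, *Nr4a2* had 59.6 ± 3.56 CPM in the vehicle group and 45.8 ± 5.59 CPM in the SP group (SD, n = 3 each), a log2 fold change of -0.39 (FDR 0.308). *Dusp1* had -0.47 (FDR 0.404), whereas *Nr4a3*, a paralog of *Nr4a2*, had 0.23 (FDR 0.426). The median of these 12 genes was -0.049.

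Markers of some cell populations moved with the groups, and their part in the receptor values was not tested. Counts of markers given as higher or lower are those with an unadjusted p under 0.05 in edgeR, and 0 markers of any list were called. Of the 10 markers of hippocampal pyramidal and granule cells, 5 were higher and 0 lower beside *Adra1d*. *Spink8* had 13.7 ± 0.420 CPM in the vehicle group and 19.7 ± 1.78 CPM in the SP group (FDR 0.242), and *Fibcd1* had 138 ± 4.73 and 165 ± 8.60 CPM (FDR 0.308; SD, n = 3 each). *Wfs1*, a marker of CA1 pyramidal cells, had a log2 fold change of -0.16 (FDR 0.586). The summed level of the 10 markers was 1073, 1215 and 974 CPM in SP 1, 2 and 3. The value of SP 3 was below every vehicle library (979 to 1023 CPM), where *Adra1d* was higher in SP 3. The oligodendrocyte and myelin sum did separate the groups as *Adra1d* did, with 4383 to 4919 CPM in the vehicle libraries and 5028 to 7196 CPM in the SP libraries.

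Beside *Adra1a* and *Adra1b*, the summed markers of layer 6b, subplate and subiculum neurons were lower in each SP library. Of these 8 markers 5 were lower, with a median log2 fold change of -0.56, and the sum was 200.6 to 204.5 CPM in the vehicle libraries and 117.5 to 165 CPM in the SP libraries. Of 14 markers of neocortical layers, 4 were lower, with *Cux2* at -0.64, and 1 was higher. Their sum was 614 to 658 CPM against 587 to 627 CPM. The sum of 9 thalamic markers, 151 to 195 CPM in the vehicle group and 161 to 182 CPM in the SP group, did not separate the groups, and 1 of them, *Rora*, was lower. The 9 leptomeningeal markers all had negative log2 fold changes, from -0.70 for *Igf2* to -0.089, and 2 counted as lower, and the sum was 382 to 458 CPM against 251 to 358 CPM. For these lists no defining marker was at 0 in all libraries.

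In SP 2, where *Adra2a* and *Adrb1* were lowest, the 14 markers of GABAergic interneurons summed to 1337 CPM, beside 1557 to 1623 CPM in the other 5 libraries. Within this list, *Reln* and *Vip* had log2 fold changes of -0.44 and -0.34 and *Cck* of 0.13. The 10 striatal markers summed to 105 and 106 CPM in SP 1 and SP 2, the libraries in which *Adra1a* was lowest, and to 135 to 141 CPM in the other libraries. Of these markers, 3 were lower, *Ppp1r1b* among them at -0.28. The sums of the astrocyte, microglia, and endothelial and mural cell lists overlapped between the groups, with medians of -0.012, -0.016 and 0.037. *S100b* was higher by 0.19 and *Sox9* and *Slco1a4* had -0.21 and -0.23. The 11 oligodendrocyte and myelin markers all had positive log2 fold changes, from 0.28 to 0.39, and 9 counted as higher, *Mag* by 0.37 and *Opalin* by 0.32 among them. Of 8 precursor markers 1 was higher, *Sox10* by 0.32. The 10 choroid plexus markers all had negative log2 fold changes, from -1.58 to -0.69, and 4 counted as lower, *Prlr* and *Kcnj13* among them at -1.46 and -1.45.

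**Figure D5:**
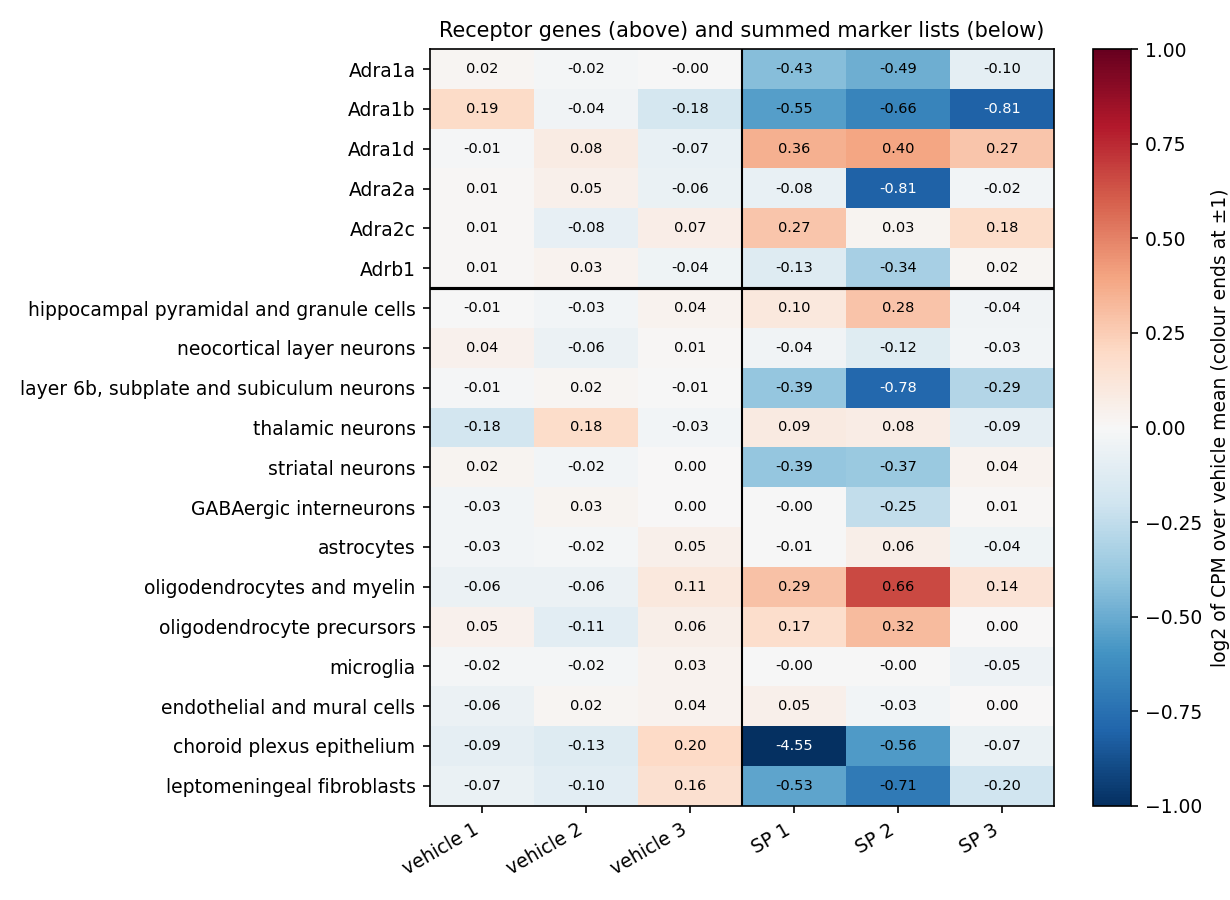
Log2 of the CPM in each library over the vehicle mean, for the 6 receptor genes (upper rows) and the summed markers of 13 cell populations (lower rows), with colours that end at ±1. Each receptor gene except *Adrb1* keeps its sign in all 3 SP libraries, although *Adra2a* in SP 3 (14.1 CPM) is close to its vehicle mean (14.4 CPM). The choroid plexus sum is low mainly in SP 1 (-4.55) and the interneuron sum in SP 2 (-0.25).

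For each receptor, the genes with the most similar profile were found by the root mean square difference of log2 CPM, each gene centred on its own mean, over the 6 libraries and 14895 genes with a mean of at least 1 CPM. The nearest to *Adra1d* were *Them6* and *Rab40c*, both at a difference of 0.035 on the log2 scale, where *Adra1d* itself had an SD of 0.198. The nearest to *Adra1b* were *Lrrc29* and *Gjb2* (0.106 and 0.124), and the nearest to *Adra1a* were *Car10* and *Cdh6* (0.036 and 0.042). *Adra2a* was nearest to *Glipr2* and *Gap43* (0.053 and 0.054), *Adra2c* to *0610010K14Rik* and *Mchr1* (0.034 and 0.038), and *Adrb1* to *Dner* and *Col5a2* (0.015 and 0.019). None of the receptors was among the nearest genes of another. These are given as a description, since all profiles come from the same 6 libraries.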

How the data were processed

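The authors used the Nextflow RNAseq pipeline (Trim Galore for trimming, STAR for alignment to GRCm38, Salmon for quantification) and deposited estimated counts per gene that were not scaled. Tool versions and the annotation release are not given in the sources used here. Of the values, 9.77% were not whole and were rounded. The columns of the saline group carry a control name and were matched to the vehicle samples by treatment and batch.

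Genes were filtered by filterByExpr (minimum count 10, total 15), which left 17069, normalized by TMM (factors 0.993 to 1.01) and tested with the quasi-likelihood functions of edgeR 4.0.16 in R 4.3.3, with the batch number as a block, because the study adjusts for replicates. FDR is the Benjamini-Hochberg value over all genes tested, and a gene was called at FDR < 0.1 with |log2FC| > 0.3. Intervals are 95% intervals of the fitted value. The labels give the pairing, and Pearson's r of the deviations from the group means between same-numbered mice was 0.0134, -0.0973 and -0.0094 across 14896 genes, which are not independent replicates. Nothing says more about how mice were paired.

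RPKM used merged exons of GENCODE M21, which holds 55240 of the table's identifiers. Promoters came from RefSeq (GRCm38.p6), which had 4 of the 6 members, and windows covered the 250 bases before each start. Alternatives used limma-voom (limma 3.58.1), DESeq2 1.42.0, other filters and normalizations, and fewer libraries. The fits were tested on simulated data.

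The members, the lists and the tests were chosen with earlier results of these data known. Genes named are the members, the other receptors, in each list up to 2 genes with the lowest p under 0.05 in each direction and any called, the most abundant hippocampal marker, the 2 nearest profiles, and genes of noradrenergic cells. *Slc6a2*, *Slc18a2*, *Dbh*, *Phox2a* and *Wfs1* were named after their values were seen. Some genes that the rule selects are not reported here. No set test was run.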

Additional observations from a re-analysis of the deposited data

How the results depend on the processing

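The direction of the log2 fold change of all 6 receptors was kept under each of 18 alternatives, and no value reversed. The range was 0.31 to 0.39 for *Adra1d*, -0.75 to -0.56 for *Adra1b*, -0.46 to -0.26 for *Adra1a*, -0.47 to -0.025 for *Adra2a*, 0.11 to 0.23 for *Adra2c* and -0.26 to -0.036 for *Adrb1*. An unadjusted p under 0.05 held for *Adra1d* in all 18, for *Adra1b* in 17 and for *Adra1a* in 9.

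With no filter on low counts, 2 receptors were called, *Adra1b* at -0.67 and *Adra1d* at 0.34 (0.337), with 3 genes of the pathway lists and 384 genes in all, where the main fit called 5. With DESeq2 and no replicate block, *Adra1d* (0.341) was the 1 receptor called, beside 2 pathway genes and 132 genes in all. With DESeq2 and the replicate block, 1 pathway gene and 36 genes were called, 1 receptor had an unadjusted p under 0.05 where 3 had it in the main fit, and DESeq2 gave no adjusted p for *Adra1a* and *Adra1b* and an FDR of 0.321 for *Adra1d*. Without the replicate block, and with limma-voom, 2 genes were called. No gene was called (0) at FDR < 0.05, with at least 10 counts in every library, or with a filter that needs the minimum count in 3 libraries, which was chosen after seeing the data. Leaving out both mice of a batch gave 9 to 36 called genes (9, 13 and 36 without batch 1, 2 and 3) and 0 receptors. Leaving out 1 library, with no replicate block, gave 1 to 357 genes, 0 to 1 receptors and 0 to 5 pathway genes, and the highest values, with *Adra1d* called at 0.37, came without SP 3. The cause of these differences was not tested, except that leaving out libraries lowers the number of mice.

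In edgeR, 0 receptors were called with and without the replicate block. With the longest transcript, *Adra1a* had 1.454 and *Adrb1* 4.651 RPKM. The share of *Adrb1* in the summed receptor RNA was lower in the SP group by 2.58 percentage points per length (-2.58) and by 2.20 by counts (-2.20). Of 450 medians of lists under the alternatives, 436 moved by less than the spread between batches and 14 by more. Depth limited *Adrb3* and *Adra2b* most, with 20 counts or fewer in every library.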

Other observations

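By class, the 3 alpha1 genes made up 60.3 ± 1.29% of the summed RPKM of the 6 receptors in the vehicle libraries and 65.4 ± 3.65% in the SP libraries, the alpha2 genes 26.2 ± 1.26% and 23.7 ± 2.66%, and *Adrb1* 13.5 ± 0.0390% and 10.9 ± 1.19% (SD, n = 3 each). The share of *Adrb1* was between 13.4% and 13.5% in every vehicle library and between 9.83% and 12.2% in the SP libraries, so that it did not overlap although the CPM of *Adrb1* did. The denominator includes *Adra1d*, which was higher in each SP library. Without *Adra1d*, the summed level of the other 5 receptors was 58.6, 57.2 and 56.9 CPM in vehicle 1, 2 and 3 and 56.5, 45.5 and 58.0 CPM in SP 1, 2 and 3, so that SP 2 alone lay apart.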
